A study of Mus musculus with 3 samples.

Results

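The cells described here were 357 thymocytes of the 8852 kept from a sort of DN1 and DN2 thymocytes, and they were selected on measured transcripts of the γδ T cell receptor and of early γδ genes. A cell was taken when it held at least 2 UMIs (unique molecular identifiers, each standing for 1 captured mRNA molecule) of Trdc and at least 2 of Sox13, Etv5 and Blk together, with 0 of Il2ra and 0 of Il17re and Il23r. Cells with fewer than 500 or more than 5000 genes, or with over 7% mitochondrial counts, had been left out. The cells that met these conditions are called gate cells below. The gate was set on measured counts, so the levels of its 7 genes, and every contrast of gate cells with other cells of a run, are given as descriptions without a test.

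The study profiled thymocytes of C57BL/6 mice, labelled week 6 and with no genetic change or treatment given, in 3 droplet libraries that each came from 4 pooled thymi depleted of CD4+ and CD8+ cells. The first run held total DN thymocytes (CD4- CD8-, and negative for B220, CD11b, CD11c, NK1.1 and TCRβ) together with TCRγδ+ thymocytes. The second held the CD44+ DN cells that were also negative for surface TCRγδ, which covers DN1 (CD25-) and DN2 (CD25+). The third was a mixture, made after separate sorts, of TCRγδ+ cells with cells of the DN1, DN2 and DN3 stages. Each sort gave 1 library, so the sort and the library cannot be told apart, no test was possible, and all 95% intervals cover counting error only. The libraries held 39947415, 52797915 and 98533329 UMIs over 5527, 8887 and 8869 cells, with a median of 5982, 4830 and 8343 UMIs per cell. Of these cells, 5516, 8852 and 7511 were kept. The first and second runs shared 72 cell barcodes, the first and the third run 3, and the second and the third run 0, and no barcode met the gate in 2 runs.

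The second library also stood apart in sex-linked transcripts. Xist, the transcript of the inactive X chromosome, was at 1403 CPM (counts per 1000000 UMIs, from counts summed over the cells) in the gate cells of the first run and at 1548 CPM in those of the third, while none of the 1402381 UMIs of the gate cells of the second run was Xist, which allows a level of up to 2.14 CPM. The Y-linked gene Ddx3y was at 113 CPM in the gate cells of the second run and had no UMI in those of the other two. The labels do not give the sex of the pooled mice, and it cannot be told apart from the sort.

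γδ T cells acquire part of their effector program in the thymus, before they enter the periphery. Those that will make interleukin 17 depend on transcription factors such as Sox13, Sox4 and Maf, and on the kinase Blk, while Etv5 is an ETS factor of the same early cells. DN1 thymocytes are CD25- CD44+ and are divided by surface CD117 (the product of Kit) and CD24 (the product of Cd24a) into DN1a to DN1e, of which DN1d is CD117- CD24+ and DN1e is CD117- CD24-. The CD117+ subsets DN1a and DN1b hold the canonical early T cell progenitors.

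Cd24a was lower in the gate cells than in the rest of the run, and Kit was low in both. Kit was at 9.98 CPM (95% interval 5.46 to 16.7) in gate cells and at 19.6 CPM in the rest, a log2 ratio of -0.98 (-1.85 to -0.22) that ended against other cells of like depth (-0.01). The level of a Kit+ cell is given by 25 cells chosen for at least 2 UMIs of Kit, with 0 of Il2ra and fewer than 2 of Trdc, where it was 282 CPM. Cd24a was at 329 CPM (95% interval 299 to 360.1) in gate cells, at 679 CPM in the rest of the run, at 433 CPM in the rest without Il2ra, and at 803 CPM in cells with at least 2 UMIs of Il2ra. Against a reference of 1065 cells with at least 2 UMIs of Il7r, 0 of Il2ra and fewer than 2 of Trdc, which was chosen after the level of the gate cells had been seen, Cd24a was higher in gate cells, with 69.7 CPM in the reference and a log2 ratio of 2.24 (2.02 to 2.46). Within the gate cells 191 of 357 had no Cd24a UMI, 77 had 1 and 89 had more, up to 17. Thus, the transcript placed them neither at the top of the run nor at the level of the Il7r reference, and they are not called DN1d here. Cd44, which encodes the surface protein of the sort, was at 44.9 CPM (95% interval 34.5 to 57.5) in gate cells, at 29.9 CPM in the rest of the run and at 60.4 CPM in the rest without Il2ra, so that its direction depended on the reference. Genes of surface proteins that mark DN1 or DN2 cells or their subsets were also counted. In the study, CD53 and Ly-6d were used to divide DN2 cells, and CD24, CD314 (Klrk1) and CD317 (Bst2) to divide DN1 cells. Of 9 with 20 CPM or more in gate cells or the rest, 1 (Cd53, a tetraspanin) was 2-fold or more higher in gate cells. Another 4 (Cd24a, Klrk1, Bst2 and Ly6d) were lower, against 6.03% higher and 4.85% lower over all genes at that level. Against the rest without Il2ra, 0 of 9 were higher and 5 lower. The log2 ratio of Cd24a to the rest was -1.05, and it was -0.42 when the condition on Il2ra was dropped. Ly6d was at 247 CPM in gate cells and 1109.8 CPM in the rest.

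**Figure D1:**
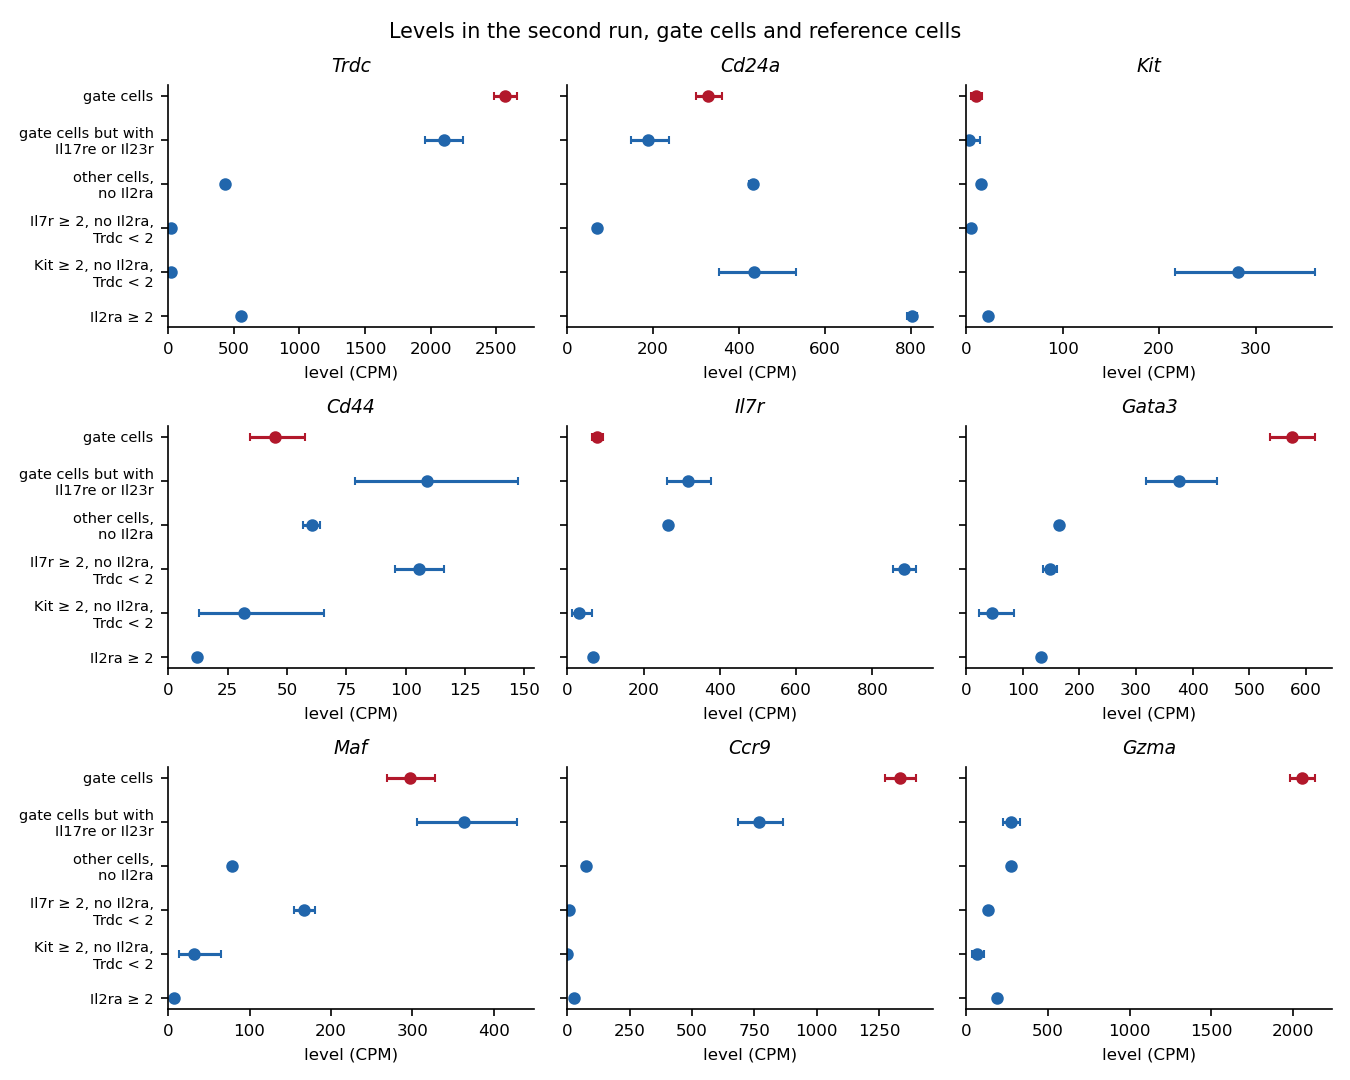
Levels of 9 genes in the second run, in CPM with 95% Poisson intervals (horizontal bars, drawn where wider than the point), for the 357 gate cells (red) and for reference cells set by transcript counts (blue). Trdc belongs to the gate. Cd24a of the gate cells lies between the cells with Il7r and the cells with Il2ra, whereas Ccr9 and Gzma are higher in gate cells than in the other cells shown.

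The gate took 4.03% of the kept cells of the second run (Clopper-Pearson 95% interval 3.63 to 4.46), 3.66% of the first (202 cells, 3.18 to 4.19) and 8.49% of the third (638 cells, 7.87 to 9.15). In the second run 4427 cells had at least 2 UMIs of Trdc, 619 of these also met the condition on Sox13, Etv5 and Blk, 455 of these had no Il2ra, and 98 of these had Il17re or Il23r. These shares have different denominators, since each sort held other cells beside them. All of Sox13, Etv5 and Blk were detected in 121 of the 357 gate cells (33.9%), and 58 cells (16.2%) had met the condition on Blk alone. In the third run, 365 of 638 gate cells had all 3. Gate cells were shallower than the rest of the second run, with medians of 3064 and 4941 UMIs and of 1354 and 1850 genes, respectively.

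The genes of the gate had the following levels. Trdc, the constant region of the δ chain, was at 1252, 2569 and 1479.9 CPM in the gate cells of the first, the second and the third run, and at 517 CPM in the rest of the second. In 17 B cells of the second run (at least 2 UMIs of Cd79a and 1 of Cd79b), which should lack it, Trdc was at 44.6 CPM. Sox13 was at 155, 260.3 and 382 CPM in gate cells in the same order of runs, Etv5 at 153, 374 and 246 CPM, and Blk at 245, 555 and 301 CPM. In the second run, single gate cells held 2 to 40 UMIs of Trdc with a median of 9, and up to 8 of Sox13, 7 of Etv5 and 10 of Blk. On GRCm38, Trdc lies on chromosome 14 (54142851 to 54148868, plus strand), Sox13 on chromosome 1 (133382303 to 133424377, minus strand), Etv5 on chromosome 16 (22381309 to 22439719, minus strand) and Blk on chromosome 14 (63372836 to 63417037, minus strand), by GENCODE.

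The edges of the gate were not sharp for every gene. The 85 gate cells with exactly 2 UMIs of Sox13, Etv5 and Blk had 719.6 CPM of Ccr9 and 500.6 CPM of Cd24a, whereas the 205 cells just outside, with 1 UMI, had 238 CPM of Ccr9 and 773 CPM of Cd24a. The 17 gate cells with 2 UMIs of Trdc had 755 CPM of Ccr9, and the 22 cells with 1 had 651 CPM. The 52 cells left out for 1 UMI of Il2ra had 211 CPM of Ccr9, 1000 CPM of Ly6d and a median of 7546 UMIs per cell. The 64 cells left out for 1 UMI of Il17re or Il23r had 856 CPM of Ccr9 and 361 CPM of Gzma, against 2056 CPM of Gzma in gate cells.

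Variable region transcripts of the receptor were detected in more of the gate cells than of the rest. A γ chain variable gene was detected in 80 of 357 gate cells (22.4%, 18.2 to 27.1) and in 8.59% of the rest, and after each cell was thinned to 2000 UMIs in 14.8% and 4.04%. In the B cells, which should lack them, 1 of 17 had one, at a median depth of 14687 UMIs. A δ chain variable gene was detected in 30 gate cells (8.40%, 5.74 to 11.8) and in 0.895% of the rest, and 11 gate cells had both kinds. Among the gate cells with a γ variable gene, 51 had Trgv2 alone, 16 Tcrg-V1 alone and 4 Tcrg-V4 alone, while 9 had more than 1 gene and Tcrg-V6 had no UMI, which allows a level of up to 2.14 CPM. In the gate cells of the first run, 37.6% had a γ variable gene (15.8% after thinning), and in those of the third run 88.9% did (52.7%), where 8.52% of 399 B cells had one. Of 5 counted genes of the γδ receptor list outside the gate, 2 (Trgv2 and Tcrg-V1) were 2-fold or more higher in gate cells and 0 lower. The γ constant genes stayed within 2-fold, with a log2 ratio of gate cells to the rest of the second run of -0.27 for Tcrg-C1, 0.12 for Tcrg-C2 and 0.24 for Tcrg-C4. All genes of the list, Trdc included, summed to 5732 CPM in gate cells, of which Trdc gave 2569, and to 3656 CPM in the rest. Without Trdc, a gate gene, the sums were 3162 and 3139 CPM, so that the remaining receptor transcripts were alike in sum in gate cells and the rest as a whole. This depended on the reference. Of 5 counted receptor genes, 4 were 2-fold or more higher in gate cells than in the cells with Kit, and 0 lower. Against the cells with Il7r all 5 were higher, and against the rest without Il2ra 2 were higher and 0 lower. Thus, cells sorted as negative for surface TCRγδ carried γδ receptor transcripts, in the gate cells and elsewhere.

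Next, all genes at 20 CPM or more in gate cells or in the rest, and with at most 20% of their gate cell UMIs in 1 cell, were compared between gate cells and the rest of the second run. Of 5754 such genes outside the gate, 347 (6.03%) were 2-fold or more higher in gate cells and 279 (4.85%) were 2-fold or more lower. These counts fell to 96 and 41 when the condition on Il2ra was dropped, which adds 141 deeper cells, and to 132 and 48 when 1 UMI of Sox13, Etv5 and Blk was enough. In the first run, 173 of 5558 genes (3.11%) were higher and 38 (0.684%) lower by this measure, and in the third 255 of 6298 (4.05%) were higher and 220 (3.49%) lower. Among the 15 highest ratios in the second run were those of Myo6 and Tox2. Myo6, which encodes an unconventional myosin, was at 317 CPM (95% interval 289 to 348) in gate cells and 9.25 CPM in the rest, and its gate cells had 86.1 CPM in the first run and 129.8 in the third. Tox2, an HMG-box factor, was at 89.1 and 4.08 CPM, with 61.0 CPM in the gate cells of the first run and 128 CPM in those of the third. The other genes among the 15 highest, in order, were Slc15a1, Gm26614, Cx3cr1, Ccr9, H2-Q2, Wfs1, Sdc4, Ankrd6, Gsn, St6gal1, Ptgir, Galm and Mpped2, with log2 ratios from 3.56 (Mpped2) to 5.56 (Slc15a1). The log2 ratio exceeded 1 in all 3 runs for 14 of these 15 genes, and the exception was H2-Q2, a class I gene of the major histocompatibility complex with close copies, which had 0.11 in the first run and 4.64 in the second.

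**Figure D2:**
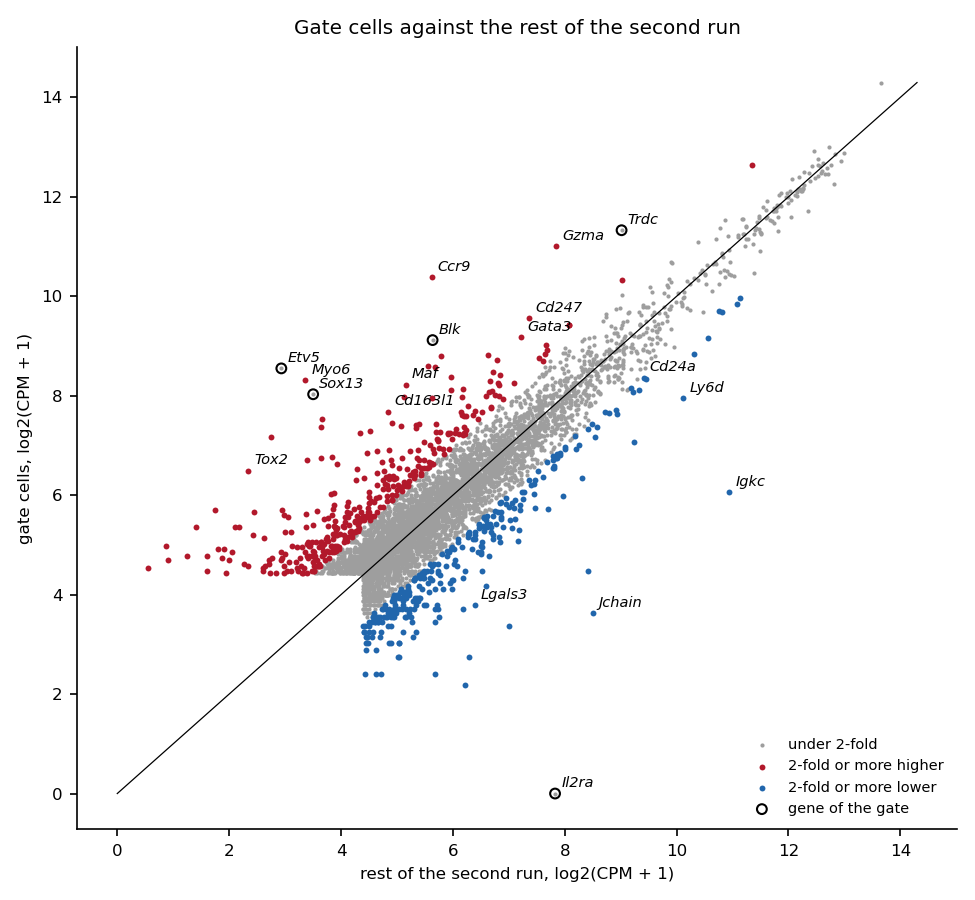
Level of each counted gene in gate cells (vertical axis) and in the rest of the second run (horizontal axis), both as log2(CPM + 1). Red points are the genes 2-fold or more higher in gate cells and blue points those 2-fold or more lower, and open circles mark genes of the gate, which were set apart. Ccr9, Gzma and Myo6 stand far above the line of equal levels, and Igkc and Jchain far below it.

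For many of the genes lowest in gate cells, a few other cells held most of the UMIs. Of the 15 lowest, 7 had over 50% of their UMIs in the rest within 10 cells, all of them immunoglobulin, Jchain or globin genes, and 10 cells held 81.0% of the Igkc UMIs of the rest, 72.8% of those of Jchain and 95.6% of those of Igha. Igkc had a UMI in 83 gate cells (23.2%) and in 27.4% of the other cells. The other 8 were Lgals3, Cxcr3, Fcer1g, Dyrk4, Gm5111, Tmem107, Neil3 and Rnf157, with at most 5.37% of their UMIs in 10 cells. Neil3, a DNA glycosylase gene, was at 5.7 CPM in gate cells and 31.4 CPM in the rest, but its log2 ratio turned to 1.93 against other cells within the quartiles of gate cell depth. Dyrk4, Gm5111, Tmem107, Neil3 and Rnf157 no longer passed 2-fold when the condition on Il2ra was dropped (log2 ratios from -0.91 to -0.32) or when 1 UMI of Sox13, Etv5 and Blk was enough (-0.85 to -0.25). Lgals3, which encodes galectin 3, was at 12.8 CPM (95% interval 7.61 to 20.3) in gate cells and 82.8 CPM in the rest, and Cxcr3, a chemokine receptor of type 1 cells, at 4.28 and 25.4 CPM.

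Transcription factors and other genes of the type 17 precursor program were high in gate cells beyond the genes that chose them. Of 11 counted genes of this list outside the gate, 7 were 2-fold or more higher in gate cells of the second run and 0 lower, with a median log2 ratio of 1.96 where that of all genes was 0.018. Maf, a factor needed for interleukin 17 producing γδ cells, was at 72.5, 297 and 401 CPM in the gate cells of the first, the second and the third run, and at 2.58, 34.7 and 60.8 CPM in the rest of each. Gata3, a factor of T cell commitment, was at 330.0, 575 and 379 CPM in gate cells and at 121, 148 and 101 CPM in the rest. Sox4 was at 687 CPM in gate cells and 268 CPM in the rest of the second run. The factors Tcf7 and Bcl11b differed by less than 2-fold, with log2 ratios of 0.46 and 0.45.

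Effector and homing genes of the same list were higher too, and Ccr9 was among the 15 highest ratios of the second run. Ccr9, the receptor for the thymic chemokine CCL25, was at 479, 1333 and 1249 CPM in the gate cells of the 3 runs and at 55.0, 48.1 and 107 CPM in the rest. Of the gate cells of the second run, 307 of 357 gate cells had a Ccr9 UMI, with a median over all gate cells of 5 and up to 16. Gzma, which encodes granzyme A, was at 2137, 2056 and 3214 CPM in gate cells and at 685, 228 and 317 CPM in the rest. It was spread unevenly, with 0 UMIs in 124 gate cells of the second run, a median of 2 and a maximum of 88. Camk4, a calcium-dependent kinase, was at 150.5 CPM in gate cells and 19.2 CPM in the rest of the second run. In the first run 5 of 11 counted genes of the list were 2-fold or more higher in gate cells and 0 lower, and in the third 7 of 12 were higher and 1, the kinase gene Syk, was lower.

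**Figure D3:**
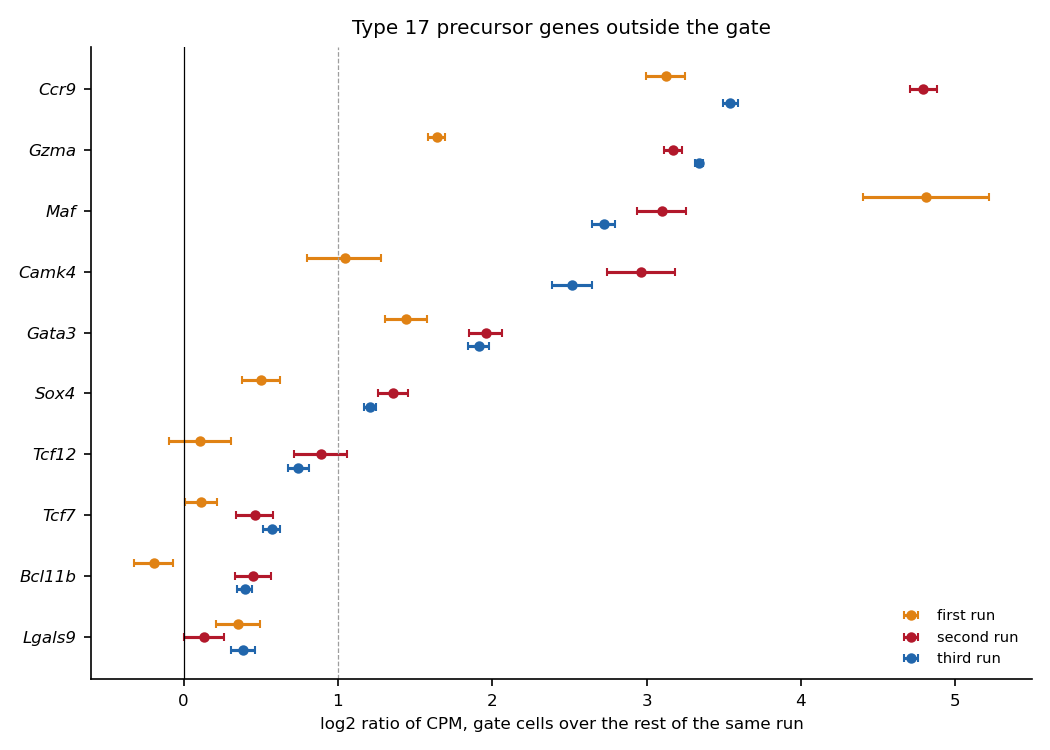
Log2 ratio of CPM between gate cells and the rest of the same run for 10 genes of the type 17 precursor list that are not in the gate, with 95% counting intervals (bars). The solid line marks equal levels and the dashed line 2-fold. Ccr9, Gzma, Maf, Gata3 and Camk4 lie above 2-fold in all 3 runs, Camk4 in the first with an interval that reaches below it.

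Genes of mature type 17 cells, in contrast, stayed for the most part within 2-fold of the rest in the second run. Of 9 counted genes outside the gate, 3 were 2-fold or more higher and 0 lower, namely Cd163l1 (a scavenger receptor of γδ cells) at 204 and 27.7 CPM, Rora (a nuclear receptor) at 97.7 and 14.3 CPM, and S100a4 at 242 and 117 CPM. The calls depended on the reference, since 2 of 9 were higher and 2 lower against the rest without Il2ra, whereas 6 of 9 were higher and 0 lower against the cells with at least 2 UMIs of Il2ra and against the cells that met the gate but for Il2ra, and 6 were higher and 1 lower against the 25 cells with Kit. Icos was at 64.9 CPM in gate cells and 66.3 CPM in the rest, and Il18r1 at 36.4 and 31.7 CPM. Il17a and Il17f were near the floor, at 3.57 and 8.56 CPM. The list differed between runs. In the first run 3 of 6 counted genes were 2-fold or more higher in gate cells than in the rest and 0 lower. In the third run 2 of 9 were higher and 5 lower. Over all counted genes, 3.11% were higher in the first run, and 4.05% were higher and 3.49% lower in the third. In the second run, the 98 cells that met the gate but for a UMI of Il17re or Il23r were then set beside the gate cells. Of 5905 genes, 314 (5.32%) were 2-fold or more higher in gate cells and 312 (5.28%) lower, and of 11 mature type 17 genes 0 were higher and 9 lower. Ccr6 was at 4.99 CPM in gate cells and 51.9 CPM in those 98 cells, Aqp3 at 22.1 and 169 CPM, and Il7r at 78.4 and 316 CPM. Conversely, Gzma was at 2056 and 272 CPM, and Tox2 at 89.1 and 15.6 CPM.

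Cells next to the gate gave further references within the second run. The 1062 cells with at least 2 UMIs of Trdc, fewer than 2 of Sox13, Etv5 and Blk and 0 of Il2ra shared Trdc with the gate cells by choice. Of 5756 genes, 343 (5.96%) were 2-fold or more higher in gate cells and 281 (4.88%) lower, and 7 of 11 precursor genes and 6 of 9 mature type 17 genes were higher and 0 lower. Maf was at 33.6 CPM in these cells, Ccr9 at 114 CPM and Gzma at 328 CPM. The 141 cells that met the gate but for Il2ra were deeper, with a median of 9334 UMIs. Against them 471 of 5842 genes (8.06%) were higher in gate cells and 442 (7.57%) lower, with 13 of 14 S phase genes and 13 of 13 G2 and M genes among the lower. They had 36.9 CPM of Maf and 148 CPM of Ccr9.

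Other references were set by Il2ra, Kit or Il7r. Against the 2858 cells with at least 2 UMIs of Il2ra, 553 of 5838 genes (9.47%) were higher in gate cells and 465 (7.97%) lower, and Itgae and Cd52, a glycoprotein of mature lymphocytes, were at 5.0 and 192 CPM there and at 84.1 and 1649 CPM in gate cells. Against the 25 cells with Kit, 952 of 5973 genes (15.9%) were higher and 612 (10.2%) lower, with 0 of 7 progenitor genes other than Kit higher in gate cells and 5 lower, and with 12 of 14 CD3 and signaling genes higher and 0 lower. Against the 1065 cells with Il7r, 593 of 5696 genes (10.4%) were higher and 290 (5.09%) lower. Mature type 17 genes were lower in gate cells for 8 of 11 and type 1 genes for 8 of 9 in that contrast, and 9 of 12 precursor genes were higher and 1 lower. Ramp1, a receptor component, was at 533 CPM in gate cells, 719 CPM in the cells with Il7r and 469 CPM in the cells with Il2ra.

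Type 1 effector genes were lower than in the rest of the run. Of 10 counted genes of this list, 0 were 2-fold or more higher and 7 lower, with a median log2 ratio of -1.57. The direction depended on the reference, since 8 of 10 were lower against the rest without Il2ra, but 3 of 7 were higher and 1 lower against the cells with at least 2 UMIs of Il2ra, 3 of 6 were higher and 0 lower against the cells that met the gate but for Il2ra, and 0 of 7 were higher and 1 lower against the cells with Trdc but few UMIs of Sox13, Etv5 and Blk. Il2rb, a subunit of the receptors for interleukin 2, was at 16.4 CPM (95% interval 10.4 to 24.6) in gate cells and 61.9 CPM in the rest, Xcl1, a chemokine of activated cytotoxic cells, at 21.4 and 73.8 CPM, and Klrd1, which encodes CD94, at 32.8 and 143 CPM. Ccl5 was at 22.8 and 191 CPM but was not counted, because over 20% of its gate cell UMIs lay in 1 cell. Tbx21, which encodes T-bet, had 2.14 CPM in gate cells. In the third run 0 of 11 were higher in gate cells and 8 lower, whereas in the first only 2 could be counted and neither passed 2-fold.

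Some components of the receptor complex and of its signaling were higher in gate cells. Of 14 CD3 and signaling genes, 6 were 2-fold or more higher and 0 lower, among them Cd247, Zap70, Fyn and Ptprc. Against the rest without Il2ra, only 2 of 14 were. Cd247, the ζ chain, was at 388, 754 and 535 CPM in the gate cells of the 3 runs and at 136, 163 and 122 CPM in the rest. The kinase Zap70 had a log2 ratio of 1.47 (1.29 to 1.65) in the second run, while Lck, at -0.62, and Cd3g, at -0.49, lay below the rest without passing 2-fold. Of 10 genes that respond to receptor signals, 5 were 2-fold or more higher and 0 lower, and against the rest without Il2ra 2 (Id3 and Cd27) were higher and 0 lower. The 5 were Id3 (an inhibitor of E proteins) at 329 CPM in gate cells and 61.2 CPM in the rest, Cd5 at 41.4 and 16.7 CPM, Cd27 at 521 and 201 CPM, Nr4a1 at 38.5 and 14.1 CPM, and Cd69 at 158 and 74.0 CPM. Egr1 was at 31.4 and 32.7 CPM.

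Genes of T lineage commitment were divided against the rest of the run. Of 13 counted, 3 were 2-fold or more higher (Lef1, Gata3 and Ets1) and 2 lower (Notch1 and Hes1). Against the rest without Il2ra, 3 (Lef1, Gata3 and Tcf12) were higher and 0 lower. Over all counted genes, 6.03% were higher and 4.85% lower against the rest, and 4.69% and 2.8% against the rest without Il2ra. Gata3 and Tcf12 also belong to the precursor list. Lef1 was at 247 CPM in gate cells and 48.2 CPM in the rest, and Hes1, a direct Notch target, at 121 and 295 CPM. Of 7 genes of recombination and of the αβ lineage, 1 was higher and 4 lower. Those lower were Rag2, a subunit of the recombinase, at 4.28 and 20.5 CPM, Dntt, which adds bases at the joints, at 454 and 1265 CPM, Trac, the α constant region, at 121 and 255 CPM, and Arpp21 at 111 and 241 CPM. Against the rest without Il2ra, 1 of 6 was higher and 1, Trac, lower. Trbc1 and Trbc2 were not lower, at 2288 and 2950.0 CPM in gate cells and 1657 and 1866 CPM in the rest. Of 5 counted progenitor genes, 0 were higher and 2 (Hhex and Nfe2) lower. Cpa3, a protease gene of mast cells and of early DN cells, was at 449.9 CPM in gate cells and 265 CPM in the rest, within 2-fold, but at 179 CPM in the rest without Il2ra, over 2-fold below the gate cells.

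Of 9 homing and egress genes, 3 were 2-fold or more higher in gate cells and 1 lower, against 6.03% and 4.85% over all counted genes. Ccr9, one of those higher, was also counted in the precursor list. Ccr7, the receptor that guides thymocytes to the medulla and to lymph nodes, was at 37.3, 39.9 and 37.7 CPM in the gate cells of the 3 runs and at 2.53, 3.49 and 7.05 CPM in the rest. It had no UMI in the 98 cells with Il17re or Il23r, which allows up to 7.78 CPM. Itgae, the integrin αE, was at 84.1 and 36.6 CPM in gate cells and the rest of the second run, and Itga4, the integrin α4, at 33.5 and 104 CPM. Klf2, a factor that permits egress, was at 494 and 256 CPM and stayed within 2-fold.

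Cell cycle transcripts were lower in the gate cells than in the rest of the second run, but not against every reference. At least 2 UMIs of G2 and M genes were found in 45 of 357 gate cells (12.6%) and in 34.0% of the deeper rest, and in 58.9% and 39.8% of the gate cells of the first and the third run, which were deeper as well, at medians of 5274 and 7043 UMIs. In the rest of the first and the third run the shares were 62.3% and 49.6%. Of 13 counted G2 and M genes in the second run, 0 were 2-fold or more higher and 12 lower, and of 14 S phase genes 0 were higher and 6 lower. In the first and the third run 0 of 14 G2 and M genes passed 2-fold against the rest, and 0 and 1 of 14 S phase genes were lower. In the second run, Mki67 was at 18.5 CPM (95% interval 12.1 to 27.2) in gate cells and 62.0 CPM in the rest. Against the rest without Il2ra, where 265 of 5652 genes (4.69%) were higher and 158 (2.8%) lower, 0 of 13 G2 and M genes and 0 of 12 S phase genes passed 2-fold in either direction, with Mki67 at 34.6 CPM in that reference. Against the cells with Il7r the direction turned, with 6 of 12 S phase genes and 6 of 7 G2 and M genes 2-fold or more higher in gate cells and 0 lower. In contrast, the precursor list had 8 of 11 genes higher and 0 lower against the rest without Il2ra.

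Markers of other cell types were also summed in gate cells. The 9 B cell markers summed to 37.8 CPM (28.3 to 49.4), 6 of them at 0 and Cd79b with the highest level (34.9 CPM), and Cd79a and Ms4a1 were among those at 0. The 10 natural killer and innate lymphoid markers summed to 228 CPM, of which Id2 gave 165 while Ncr1 was at 0, and the 10 myeloid and dendritic markers to 163 CPM, of which Cst3 gave 143 while Csf1r and Itgam were at 0. The 7 erythroid markers summed to 11.4 CPM. The plasmacytoid dendritic list summed to 1726 CPM, of which Ccr9 gave 1333, a gene also counted among the precursor genes, while Siglech was at 0. In the same order, these lists summed to 94.4, 665, 265, 187 and 1436 CPM in the rest of the run. They summed to 29.8, 17.6, 135, 1.36 and 1103 CPM in the gate cells of the first run, and to 238, 82.8, 133, 4.77 and 1510.5 CPM in those of the third, where Cd74 gave 112 CPM of the B cell sum. The 7 stromal and epithelial markers summed to 123 CPM in gate cells of the second run, of which Pecam1 gave 96.3, and to 95.4 CPM in the rest. The 7 αβ double positive markers summed to 388 CPM, of which Trac gave 121, and to 560.0 CPM in the rest. Thus, the sums of the B cell, natural killer, myeloid, erythroid and αβ lists were lower in gate cells than in the rest, and those of the plasmacytoid and stromal lists were higher. Their part in the results was not tested. Scrublet, a program that scores doublets, placed 37 gate cells (10.4%) among the 750 highest scores of the second run, which were 8.47% of the cells kept.

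The gate cells were not uniform. A total of 50 had no Ccr9 UMI although their median depth was 4346 UMIs, against 2984 in the 307 with Ccr9, and this division was made after the values had been seen. Of 5978 genes, 641 (10.7%) were 2-fold or more higher in the cells with Ccr9 and 544 (9.1%) lower. The cells without Ccr9 had 907 CPM of Ly6d, a surface gene of early lymphoid cells, where the others had 77.2 CPM, and 101 CPM of Maf where the others had 348 CPM. S phase genes were lower in the cells with Ccr9 for 12 of 13, G2 and M genes for 2 of 8, and mature type 17 genes for 6 of 10. Cxcr6, a chemokine receptor of effector cells, had UMIs in 59 gate cells and was at 351 CPM in the cells without Ccr9 and 57.4 CPM in the cells with it. Of 10 precursor genes other than Ccr9, 7 were higher in the cells with Ccr9 and 0 lower. The 50 cells without it therefore held higher levels both of S phase and of mature type 17 genes, at a greater depth. Markers of other cells were higher in them too, with natural killer and innate lymphoid markers at 469 and 166 CPM in cells without and with Ccr9 (Id2 at 382 and 109 CPM) and B cell markers at 73.0 and 28.7 CPM. The part of depth and of these markers in the result was not tested.

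**Figure D4:**
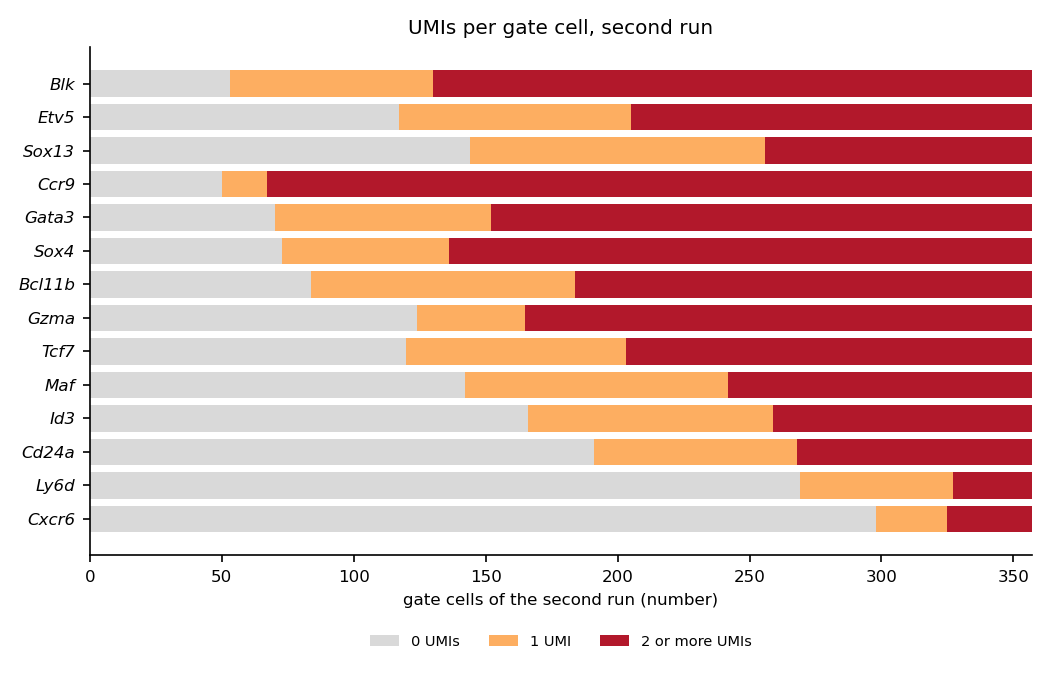
Number of the 357 gate cells of the second run with 0 UMIs (grey), 1 UMI (orange) and 2 or more UMIs (red) of each of 14 genes. Blk, Etv5 and Sox13 belong to the gate. Ccr9 was at 0 in 50 cells and Cd24a in 191, and Ly6d and Cxcr6 were detected in the fewest cells.

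Division by Cd24a, also made after the values had been seen, gave another pattern. Of 5780 genes, 318 (5.5%) were 2-fold or more higher in the 166 cells with Cd24a and 174 (3.01%) lower. All 10 counted G2 and M genes and 12 of 13 S phase genes were higher in the cells with Cd24a, with Top2a at 151 and 25.8 CPM and Tyms at 115 and 19.3 CPM in cells with and without it. Of 8 mature type 17 genes, 0 were higher and 4 lower, and S100a6, a calcium-binding protein of effector cells, was at 164 and 555 CPM. None of the 11 precursor genes passed 2-fold. Depth moved with this division, at medians of 3261 and 2956 UMIs and upper quartiles of 5658 and 3572 UMIs. Natural killer and innate lymphoid markers moved too, at 168 and 304 CPM in cells with and without Cd24a (Id2 at 105 and 242 CPM). The part of depth and of these markers in the result was not tested.

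The same gate in the first run, which included TCRγδ+ thymocytes, took 202 cells. Of 5860 genes, 497 (8.48%) were 2-fold or more higher in the gate cells of the second run and 510 (8.7%) lower. These counts fell to 261 and 114 when the condition on Il2ra was dropped in both runs. As a gauge of the libraries, the same ratio was taken in cells with at least 1 UMI of Kit and 2 of Il2ra (75 and 436 cells), where 175 of 5817 genes (3.01%) were higher and 172 (2.96%) lower. All 13 counted G2 and M genes and 12 of 14 S phase genes were 2-fold or more lower in the gate cells of the second run, with medians of -1.97 and -1.33, and in the gauge cells 0 of 14 passed 2-fold in each list. Mki67 was at 123 CPM in the gate cells of the first run and 18.5 CPM in those of the second, a log2 ratio of -2.73 (-3.39 to -2.14), and it was at -0.54 in the gauge cells. In the third run, gate cells had 189.6 CPM.

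Mature genes moved the other way between these runs. Of 9 mature type 17 genes, 8 were 2-fold or more higher in the gate cells of the second run and 0 lower, with a median of 1.95. S100a4 was at 59.6 CPM in the first run and 242 CPM in the second, and Cxcr6 at 16.3 and 118 CPM. In the gauge cells 4 of these genes could be counted and 0 passed 2-fold. Of 6 type 1 genes, 5 were higher in the gate cells of the second run and 0 lower, although this list was low there against the rest of the run. In the gauge cells 5 type 1 genes could be counted and 0 passed 2-fold. The natural killer and innate lymphoid markers moved with these lists, from 17.6 CPM in the gate cells of the first run to 228 CPM in those of the second, with Id2 at 14.2 and 165 CPM, and 2 of 3 counted markers were higher in the gauge cells of the second run too. Their part in these differences was not tested. Precursor genes differed less, with 3 of 11 higher and 0 lower, among them Maf (2.04) and Ccr9 (1.48 on the log2 scale). In the gauge cells, Maf was at 1.40 (-0.55 to 4.49) and Ccr9 at -0.90 (-1.50 to -0.26). Gzma was at -0.06 (-0.13 to 0.02) and Id3 at -0.05 (-0.23 to 0.14) between the gate cells of these runs. Cd44 was at 8.81 CPM in the gate cells of the first run and 44.9 CPM in those of the second, which had been sorted for its product.

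Among genes that differed little in the gauge cells (log2 ratio between -0.5 and 0.5), the 10 highest in the gate cells of the second run were Ctxn1, Gm4955, Ikzf3, Mpped2, Samhd1, Actn2, Myo1f, Zbtb14, Tbc1d4 and Btg1. Ikzf3, which encodes Aiolos, was at 11.5 and 79.9 CPM, and Btg1, an antiproliferative gene, at 179 and 803 CPM in the first and second runs. The 10 lowest were Neil3, Nudcd1, Prc1, Angptl4, Cenpf, Mthfd1, Kif22, Bard1, Aurkb and Rnf157. Prc1, Cenpf, Kif22 and Aurkb act in mitosis, and Aurkb was at 104 and 19.3 CPM.

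Immediate-early and heat shock genes, named after their values were seen, gave larger ratios, and they were high in the gauge cells of the second run too. Fos was at 14.9 CPM in the gate cells of the first run and 1279 CPM in those of the second, and at 14.1 and 464 CPM in the gauge cells. Hspa1a was at 21.7 and 615 CPM in gate cells and at 38.8 and 516 CPM in gauge cells.

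**Figure D5:**
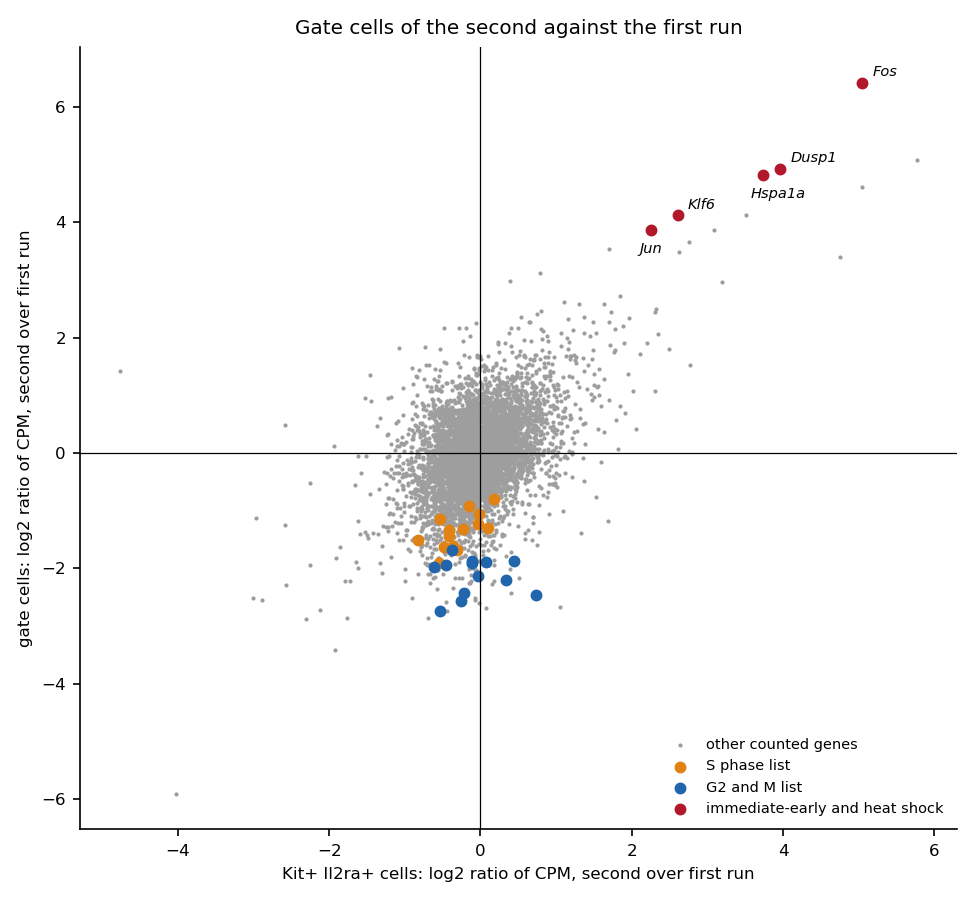
Log2 ratio of CPM, second over first run, in gate cells (vertical axis) and in the gauge cells with Kit and Il2ra (horizontal axis), for the 5705 counted genes with UMIs on both sides and at least 20 CPM summed over both gauge populations. The G2 and M genes (blue) and S phase genes (orange) lie below 0 for gate cells and near 0 for gauge cells, whereas Fos, Jun, Dusp1, Hspa1a and Klf6 (red) are high in both.

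The third run, also with DN1 and DN2 cells but with TCRγδ+ cells added, gave 638 gate cells. Of 6247 genes, 450 (7.2%) were 2-fold or more higher in the gate cells of the second run than in those of the third and 1140 (18.2%) lower, and in the gauge cells 363 of 6275 (5.78%) were higher and 1161 (18.5%) lower. Its gate cells were deeper, with a median of 7043 UMIs. None of the 11 counted precursor genes passed 2-fold in either direction between these runs. Of 9 mature type 17 genes, 6 were higher in the gate cells of the second run and 0 lower, and of 11 G2 and M genes 0 were higher and 5 lower. Transcripts of the γδ receptor went the other way for 4 of 8 genes, which were lower in the gate cells of the second run, while 2 were higher. In the gauge cells 3 of 4 receptor genes were higher in the second run and 1 lower, and of 14 G2 and M genes 3 were higher and 3 lower. Fos was at 223 CPM in the gate cells of the third run. Natural killer and innate lymphoid markers summed to 228 and 82.8 CPM in the gate cells of the second and the third run. B cell markers summed to 37.8 and 238 CPM in the same order. The part of these markers in the differences was not tested.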

How the data were processed

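Raw UMI counts per gene and cell, as the authors deposited them from Cell Ranger on mm10, were used without normalization for 3 single-cell libraries of thymocytes. R 3.6.3 and Seurat 2.3 are named in the submitters' processing notes and were not used on these counts. Counts were summed over the cells of a population and divided by its total to give CPM. Levels have exact Poisson intervals, shares Clopper-Pearson intervals and ratios exact conditional Poisson intervals (scipy 1.17.1). Genes with no UMI on 1 side were set at a floor of 3 counts. No doublets were removed. Scrublet (scanpy 1.11.5) scored them, and the removal of 700, 750 and 750 cells was an alternative. With 1 library per sort, no p-value was computed. The named genes were the gate genes, members of the 20 lists, the 15 largest ratios in each direction against the rest, and the 10 between runs. The members, the lists and the gate were chosen with earlier results of these data known. The v2 or v3.1 kit of each run was not given in the sources used here. Positions are from GENCODE on GRCm38. Some genes of the lists are counted but not reported by name here.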

Additional observations from a re-analysis of the deposited data

Results flagged for a closer look

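S100a4 and Trac differed in direction between runs, and these differences were not tested, since each run is 1 library. The log2 ratio of gate cells to the rest for S100a4 was 1.05 in the second run and -0.17 in the third, from 242 and 216 CPM in gate cells and 117 and 242 CPM in the rest. For Trac it was -1.07 in the second run and 0.88 in the first, with 121 and 44.0 CPM in gate cells and 255 and 24.0 CPM in the rest, so that the rest differed more between the runs than the gate cells did.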

How the results depend on the processing

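No paired analysis was possible because each sort is 1 library and the labels give no replicate numbers. The share of gate cells in the second run (4.03%) was 6.35% with a sum of Sox13, Etv5 and Blk of at least 1 (562 cells), 3.07% with at least 3, 2.52% without Blk, 5.63% with no condition on Il2ra (498 cells), 5.14% with none on Il17re and Il23r, and 3.29% after thinning. The count of genes higher in gate cells than in the rest (347) was 132 with the sum of at least 1, 96 with no condition on Il2ra and 179 with a floor of 50 CPM, and that of lower genes (279) was 48, 41 and 152, respectively, and 158 against the rest without Il2ra. Between the second and first runs, higher genes (497) numbered 261 with no condition on Il2ra and 250 with the floor of 50 CPM, and lower genes (510) numbered 322 with the sum of at least 1, 114 with no condition on Il2ra and 314 with that floor. The 141 cells that the Il2ra condition leaves out held 1410897 UMIs, beside 1402381 in all gate cells. Of 555 values of the 37 named genes that passed 2-fold, over 15 alternatives, 551 kept their direction and 529 stayed at 2-fold or more. Against other cells within the quartiles of gate cell depth, log2 ratios reversed for Hbb-bt (0.32), Igha (0.11), Ighg2b (0.54) and Neil3 (1.93), and the cause was not tested. The limits of these data are the single library per sort, the lower depth of gate cells, at which a UMI of 0 does not show that a transcript was absent, and the loss of 30 gate cells over 5000 genes in the third run.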

Other observations

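Tnfsf11, which encodes RANKL, the signal of developing lymphocytes to the thymic medulla, belonged to none of the lists and was chosen after its values were seen. It was at 23.0, 103 and 135 CPM in the gate cells of the first, the second and the third run and at 6.84, 9.53 and 30.4 CPM in the rest, so that gate cells were above the rest in each of the 3 runs. Within the second run it was at 125 CPM in gate cells with Ccr9 and 20.9 CPM in those without, and at 38.9 CPM in the cells with Il17re or Il23r.

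A further 110 cells of the second run held at least 2 UMIs of Sox13, Etv5 and Blk and none of Trdc, Il2ra, Il17re or Il23r. They had 72.3 CPM of Ccr9, 263 CPM of Maf and 72.3 CPM of Cd24a, at a median of 3859 UMIs, so that Maf was near the level of the gate cells and Ccr9 was not.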
